A study of Mus musculus with 6 samples.

Results

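The amino acid stress response read here is a list of 34 genes: ATF4 and other transcription factors of the response, the kinases and feedback factors around it, enzymes that make amino acids and one-carbon units, and amino acid transporters. Each gene was read from the probe set, a group of short probes on the array for 1 transcript, that names that gene alone and has the highest mean over the 6 arrays. Of the 34 genes, 33 had such a probe set, all but Pycr1, and 32 were tested among 12277 genes in all. Affymetrix arrays measured RNA of mouse lung endothelium, the inner lining of blood vessels, in cells kept at 0.5% oxygen for 16 h. There were 3 control arrays and 3 knockout arrays.

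The knockout cells came from VE-Cadherin-Cre mice with HIF-2a floxed/floxed alleles, per the labels. VE-Cadherin drives the Cre recombinase in endothelial cells, and HIF-2α, the oxygen-regulated transcription factor that Cre removes, is encoded by Epas1. The control cells are given as VE-Cadherin-Cre HIF-2a floxed/WT in the description of each sample, as floxed/floxed in the series' design text and as wild type in the genotype label, so whether they carried Cre or a deleted allele is not settled. Cells were selected repeatedly on endothelial markers and checked by flow cytometry. All 6 arrays were at low oxygen, so they hold no response to low oxygen itself. Separate animals or cultures behind the arrays are not named in the labels, and the p-values therefore reflect the spread among these 6 arrays alone, which may be technical. Ages were not given in the labels.

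When amino acids run short, uncharged tRNAs activate the kinase GCN2, encoded by Eif2ak4. When proteins misfold in the endoplasmic reticulum, the kinase PERK, encoded by Eif2ak3, becomes active. Both phosphorylate the translation factor eIF2α, which slows most protein synthesis while translation of the Atf4 mRNA goes up, so that much of the control over ATF4 lies beyond its mRNA level. ATF4 then binds C/EBP-ATF response elements and raises genes for amino acid transport and synthesis, tRNA charging and feedback on the pathway. In endothelial cells, arginine taken up through the transporter that Slc7a1 encodes also feeds nitric oxide synthesis.

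The response element that ATF4 binds was searched for as TGATGNAA, and as TTNCATCA for the opposite strand, in the 250 bases before and the 50 bases after each gene's start, with RefSeq sequence of build GRCm38.p6. Of the 34 genes, 29 had such a window. A match was found in 9 of them, or 31%, against 4.51% of 27025 genes with a window and 2.84% of the 9946 tested genes with one. The genes were listed for their part in the ATF4 response, so the higher share describes the list and tests nothing. The promoters of Asns, the enzyme that makes asparagine, and of Chac1, a glutathione-degrading enzyme, are shown in full because both genes were higher in the knockout arrays and both hold a match. They are the 250 bases before the gene's start, read 5′ to 3′ on the gene's strand, with the match in capitals.
Asns, chr6:7693210-7693459, minus strand: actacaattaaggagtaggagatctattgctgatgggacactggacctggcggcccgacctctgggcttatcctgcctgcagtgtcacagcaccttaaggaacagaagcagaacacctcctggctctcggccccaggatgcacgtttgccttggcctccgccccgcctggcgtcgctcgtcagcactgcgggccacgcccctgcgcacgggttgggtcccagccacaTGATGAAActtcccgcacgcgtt
Chac1, chr2:119350992-119351241, plus strand: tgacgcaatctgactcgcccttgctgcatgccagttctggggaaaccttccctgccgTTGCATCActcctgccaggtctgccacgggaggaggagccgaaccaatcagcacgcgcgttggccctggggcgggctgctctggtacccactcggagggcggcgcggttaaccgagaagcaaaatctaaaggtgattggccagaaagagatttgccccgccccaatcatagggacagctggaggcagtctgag
The match began 23 bases before the start of Asns and 193 bases before that of Chac1. The third called gene with a match was Slc1a4, a transporter of alanine, serine and cysteine, whose match began 4 bases before its start. For this gene and for 4 genes with a match that were not called, 30 bases around the match are shown, so that sites of genes that changed can be set beside sites of genes that did not pass the test.
Slc1a4, chr11:20332699-20332728, minus strand: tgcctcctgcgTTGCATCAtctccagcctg
Atf3, chr1:191183425-191183454, minus strand: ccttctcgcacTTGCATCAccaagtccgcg
Nupr1, chr7:126625562-126625591, minus strand: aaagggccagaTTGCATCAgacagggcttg
Pck2, chr14:55540152-55540181, plus strand: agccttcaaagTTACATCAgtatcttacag
Trib3, chr2:152344028-152344057, minus strand: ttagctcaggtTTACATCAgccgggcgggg
Slc7a11, the cystine transporter, held 2 matches that face each other across a short spacer, shown here in a single stretch of 49 bases.
Slc7a11, chr3:50443642-50443690, minus strand: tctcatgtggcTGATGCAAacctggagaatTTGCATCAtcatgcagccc
Among the genes higher in the knockout arrays, 3 of 7 with a window held a match. None of the 2 genes lower there did, and 5 of 19 that were not called did. The ninth gene with a match was Pycr1, which was not tested. A match says only that these letters occur in the window, and binding was not measured here.

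Values below are intensities on the linear scale of the deposited table, and log2 differences are knockout minus control on log2(intensity + 16). They were fitted with limma over all genes, with p-values adjusted by the Benjamini-Hochberg method and a threshold of 0.05. An intensity of 16 is taken as the floor. Of the 32 genes tested, 30 were above the floor in at least 1 array. Cth and Cbs were below it in all 6 arrays and are in the fit. Slc7a3, an arginine transporter, read 4.78 to 4.86 over the arrays and was left out by the filter on dim probe sets.

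Of the 32 genes tested, 8 were higher in the knockout arrays: the transporters Slc7a5, Slc1a4 and Slc7a1, the mitochondrial one-carbon enzymes Mthfd2 and Shmt2, Asns, Chac1 and Atf4. Over all 12277 genes the share higher was 8.65%, against 25% of the list. The 2 that were lower are the eIF2α kinase genes Eif2ak4 and Eif2ak3, or 6.25% of the list, near the 5.07% over all genes. The other 22 did not pass the test. The median log2 difference of the list was 0.15, with a range from -0.87 to 1.27, and the median over all genes was 0.0071.

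**Figure D1:**
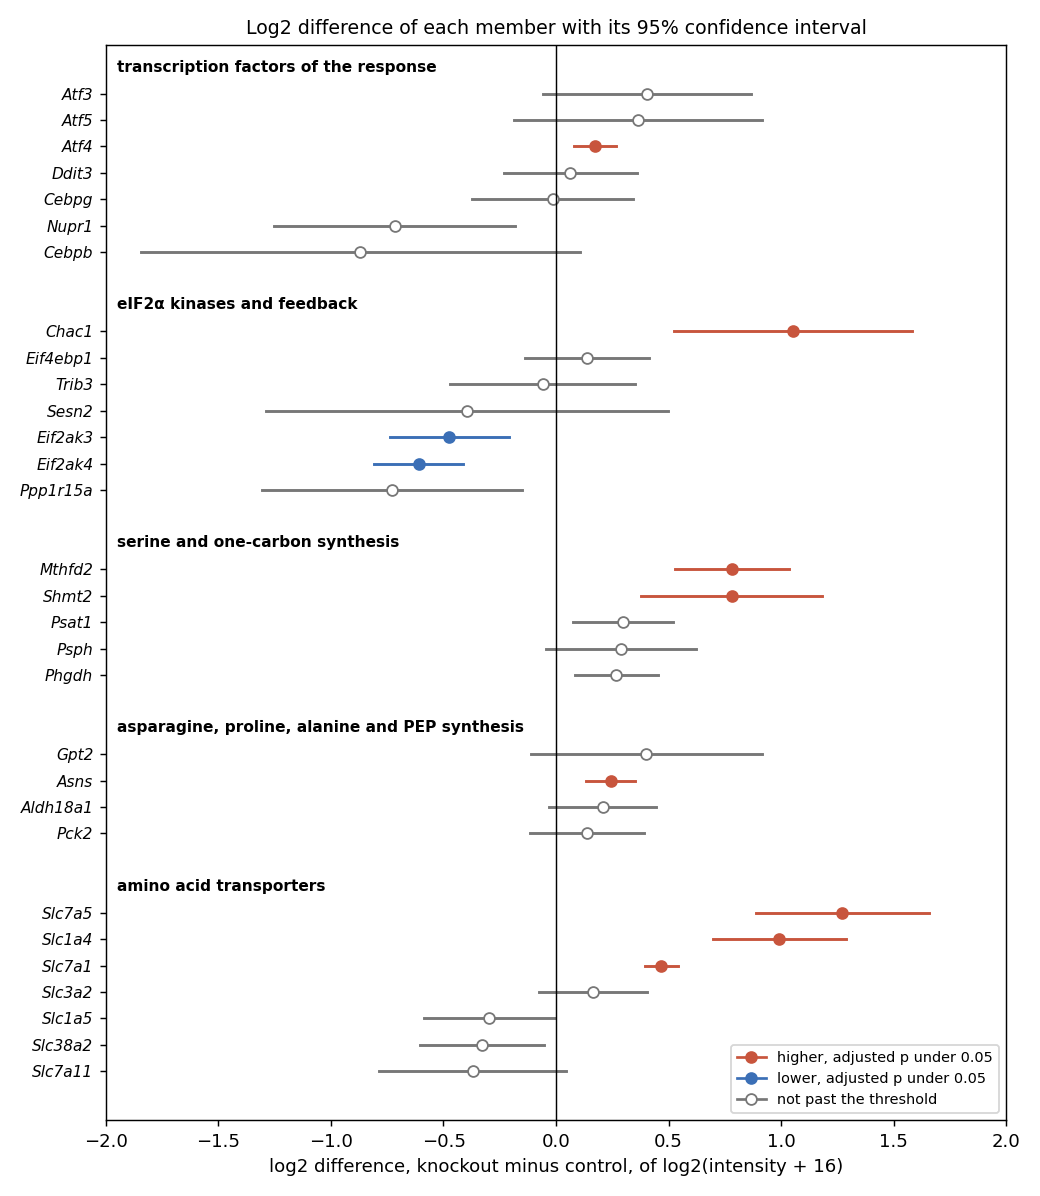
The log2 difference, knockout minus control, of each member above the floor, with bars for the 95% confidence interval, ordered within roles and coloured by whether the gene passed the test. The 8 genes higher in the knockout arrays run from Atf4 at 0.17 to Slc7a5 at 1.27, and the 2 lower are Eif2ak4 at -0.61 and Eif2ak3 at -0.47.

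Groups that did not overlap were more common than calls. Every knockout array lay above every control array for 12 of the 32 genes, where over all genes the share was 23.4%, and below every control array for 6, where it was 12.8%. The other 14 overlapped. Leaving out Cth and Cbs, which are at the floor, 10 of 30 lay above and 6 below. The shares over all genes also count genes at the floor. Of the 9922 genes above the floor in at least 1 array, 2748 lay above and 1526 below.

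Amino acid transporters held the largest log2 difference of the list. Slc7a5, the subunit that carries leucine and other large neutral amino acids, read 1854, 2228 and 1708 in the control arrays and 4408, 5425 and 4219.6 in the knockout arrays. All knockout arrays were above all controls, and the means were 1929.7 ± 268 and 4684 ± 649 (SD, n = 3 each), a ratio of 2.43. The log2 difference was 1.27 ± 0.15 (SE), with an adjusted p of 0.0141 from limma. Its partner Slc3a2, the heavy chain that brings Slc7a5 and Slc7a11 to the cell surface, did not pass the test. Slc3a2 averaged 6738 ± 434 and 7557 ± 752 in overlapping groups, with a log2 difference of 0.16 (95% confidence interval -0.08 to 0.40). Without control 1, control 3 or knockout 1, Slc7a5 kept a log2 difference of 1.19 to 1.31 and its adjusted p rose to 0.0771, 0.0674 and 0.0638.

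Slc1a4 read 1444, 1842 and 1584 in the controls and 3188, 3527 and 2998 in the knockouts, again with no overlap. The log2 difference was 0.99 ± 0.11, with an adjusted p of 0.0139. Without control 1, control 3 or knockout 1 the adjusted p was 0.0603, 0.0739 and 0.0654. Slc7a1, the main carrier of arginine and lysine, read 10041, 9868 and 9766 in the controls and 13468, 14127 and 13481 in the knockouts. The values within each group were close, at 9892 ± 139 and 13692 ± 377, so a ratio of 1.38 gave the smallest adjusted p of the list, 0.0034, at a log2 difference of 0.47 ± 0.03. Slc7a1 was the only listed gene that passed the test with each of the 6 arrays left out in turn, with adjusted p between 0.00844 and 0.031.

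The other transporters of the list did not pass the test. Slc38a2, a glutamine and alanine carrier that amino acid shortage is known to induce, lay lower in every knockout array, with a log2 difference of -0.33 and an adjusted p of 0.111. Slc1a5, an exchanger of glutamine, averaged 3196 ± 283 and 2604 ± 303 with overlap, at -0.30 and an adjusted p of 0.149. Slc7a11 averaged 253 ± 16.2 and 195 ± 40.6, at -0.37 and an adjusted p of 0.191. So the 3 transporters that were called were higher, and the 3 with negative log2 differences did not pass the test.

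**Figure D2:**
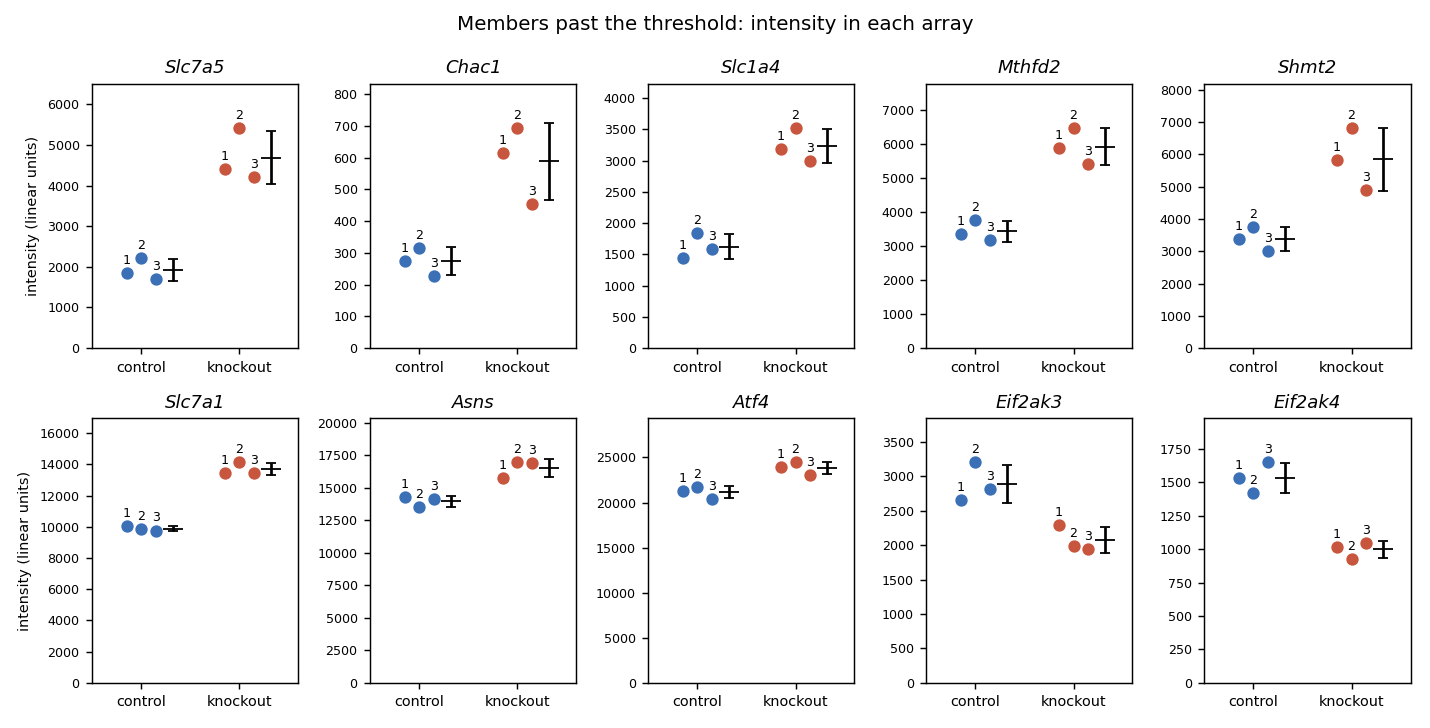
Intensity in each of the 6 arrays for the 10 members that passed the test, 1 panel per gene, on linear axes that start at 0. Points are arrays with their replicate number, and the line and bar beside each group are its mean and SD. In every panel the groups do not overlap: for Slc7a5 the controls reach 2228 and the knockouts start at 4219.6, and for Asns the controls reach 14265 and the knockouts start at 15756.

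All 5 genes of serine synthesis and mitochondrial one-carbon metabolism had positive log2 differences, with a median of 0.30, and 2 of them rose. Of the 9922 genes above the floor in at least 1 array, 5496 had positive log2 differences. Mthfd2 and Shmt2 act in mitochondria, where they take the carbon unit of serine onto folate and oxidise it. Mthfd2 read 3345, 3772 and 3192 in the controls and 5876, 6482 and 5412 in the knockouts. The groups did not overlap, and the log2 difference was 0.78 ± 0.10 with an adjusted p of 0.0161. Shmt2 read 3378, 3747 and 3017 in the controls and 5839.7, 6829 and 4884 in the knockouts. Here too the groups were apart, at 0.78 ± 0.15 with an adjusted p of 0.0407. The spread among the knockout arrays of Shmt2 was wider, with an SD of 972 against 365 in the controls. Without control 1, control 3 or knockout 1 the adjusted p of Mthfd2 was 0.0822, 0.074 and 0.0733. Shmt2 stayed past the threshold only without knockout 3, at 0.0275, and lay between 0.0711 and 0.148 without any other single array. Over probe sets its adjusted p was 0.056.

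The 3 enzymes that turn a glycolytic intermediate into serine did not pass the test. Phgdh, the first step, averaged 11892 ± 594 and 14336 ± 1063, with no overlap, at a log2 difference of 0.27 and an adjusted p of 0.0745. Psat1, the aminotransferase step, averaged 15755 ± 1657 and 19312 ± 712, with no overlap, at 0.30 and an adjusted p of 0.0869. Psph, the phosphatase that ends the route, overlapped between groups, at 0.29 and an adjusted p of 0.199. Phgdh passed without knockout 3, at an adjusted p of 0.0304, and Psat1 without control 2, at 0.0329.

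Among the other synthetic enzymes, Asns rose. It read 14265, 13516 and 14125 in the controls and 15756, 16960.1 and 16908 in the knockouts, groups that did not overlap. The ratio of the means was 1.18, at a log2 difference of 0.24 ± 0.04 and an adjusted p of 0.0303. It passed with 1 array left out only without knockout 3, at 0.0466, and ranged from 0.0553 to 0.113 without the others. Aldh18a1, the first enzyme of proline synthesis, had a log2 difference of 0.21 and an adjusted p of 0.196, and 0.30 and 0.0331 without knockout 3. Gpt2, the mitochondrial alanine aminotransferase, was at 0.40 with an adjusted p of 0.239. Pck2, the mitochondrial enzyme that makes phosphoenolpyruvate, was at 0.14 with 0.398. The groups of these 3 genes overlapped. Cth and Cbs, the enzymes of transsulfuration, which makes cysteine from homocysteine, read from 5.04 to 6.2 and from 7.11 to 9 over the arrays, all below the floor.

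Atf4 itself differed little. It read 21228, 21727 and 20399.6 in the controls and 23922, 24442 and 23070.5 in the knockouts. All 3 knockouts lay above all 3 controls, and the ratio of the means was 1.13. The log2 difference was 0.17 ± 0.04, with an adjusted p of 0.0456. Without knockout 3 the adjusted p was 0.0382, and without any other single array it lay between 0.0712 and 0.159. It passed in 6 of 15 other settings. Among those in which it did not were a pseudocount of 1 in place of 16, at 0.0578, a common 75th percentile of the arrays, at 0.103, and the spike-in level as a covariate, at 0.263. A second probe set of Atf4 had the same log2 difference, 0.17, with overlapping groups. Tested over probe sets, the adjusted p was 0.059 for the first and 0.273 for the second.

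The other 6 transcription factors of the response did not pass the test. Ddit3, which encodes CHOP, a factor of prolonged endoplasmic reticulum stress, read 1674, 1994 and 1711 in the controls and 1913, 2059.8 and 1656 in the knockouts. The groups overlapped, at a log2 difference of 0.063 (95% confidence interval -0.23 to 0.36). Atf3 was at 0.40 (-0.06 to 0.87), Atf5 at 0.36 (-0.19 to 0.92) and Cebpg, a dimer partner of ATF4, at -0.015 (-0.37 to 0.34), all with overlap. Atf5 passed without knockout 3, at 0.58 with an adjusted p of 0.0327. Cebpb and Nupr1, a C/EBP factor and a small stress-induced chromatin protein, were lower in every knockout array without passing the test. Cebpb averaged 940.1 ± 124 and 541 ± 236, at -0.87 with an adjusted p of 0.19, and Nupr1 averaged 706 ± 139.7 and 422 ± 75.8, at -0.72 with 0.0863.

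The 2 listed genes called lower were the eIF2α kinase genes, a share of the list near that over all genes. Eif2ak4, which encodes GCN2, read 1535, 1424 and 1649 in the controls and 1019, 929.9 and 1049.6 in the knockouts. No arrays overlapped, the control mean was 1.54 times the knockout mean, and the log2 difference was -0.61 ± 0.07 with an adjusted p of 0.016. Eif2ak3, which encodes PERK, read 2657, 3199 and 2806 in the controls and 2288, 1986 and 1949 in the knockouts. It too had no overlap, at -0.47 ± 0.10 with an adjusted p of 0.0472. Without control 1, control 3 or knockout 1 the adjusted p of Eif2ak4 was 0.0811, 0.0664 and 0.0698. Eif2ak3 did not pass without any of the 6 arrays, with log2 differences from -0.55 to -0.40 and adjusted p from 0.0693 to 0.15. It passed in 5 of 15 other settings, and over probe sets its adjusted p was 0.064. The remaining eIF2α kinase genes, which lie outside the list and are named here for completeness after their values were seen, did not pass. Eif2ak1, which encodes the heme-regulated kinase, was at 0.24 with an adjusted p of 0.287, and Eif2ak2, which encodes the kinase activated by double-stranded RNA, at -1.43 with 0.27.

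Of the factors that act downstream or feed back, Chac1 rose and the others did not pass the test. Chac1 read 275, 317 and 228 in the controls and 615, 694 and 455 in the knockouts. The groups did not overlap, with means of 273 ± 44.1 and 588 ± 122 and a ratio of 2.15. The log2 difference was 1.05 ± 0.20 with an adjusted p of 0.0389. It passed with 1 array left out only without knockout 3, at 0.0247, and lay between 0.0674 and 0.142 without the others. Over probe sets its adjusted p was 0.054. Trib3, a pseudokinase induced by ATF4 that holds the response back, read 2863, 3473 and 3014 in the controls and 3434, 3162 and 2439.8 in the knockouts. Its groups overlapped, at -0.059 (95% confidence interval -0.47 to 0.35). Ppp1r15a, which encodes GADD34, the subunit that directs dephosphorylation of eIF2α, averaged 1161 ± 227 and 698 ± 158 with no overlap, at -0.73 with an adjusted p of 0.0989. Sesn2, a leucine sensor and inhibitor of mTORC1, was at -0.40 (-1.29 to 0.50), and Eif4ebp1, a repressor of cap-dependent translation, at 0.14 (-0.14 to 0.41).

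**Figure D3:**
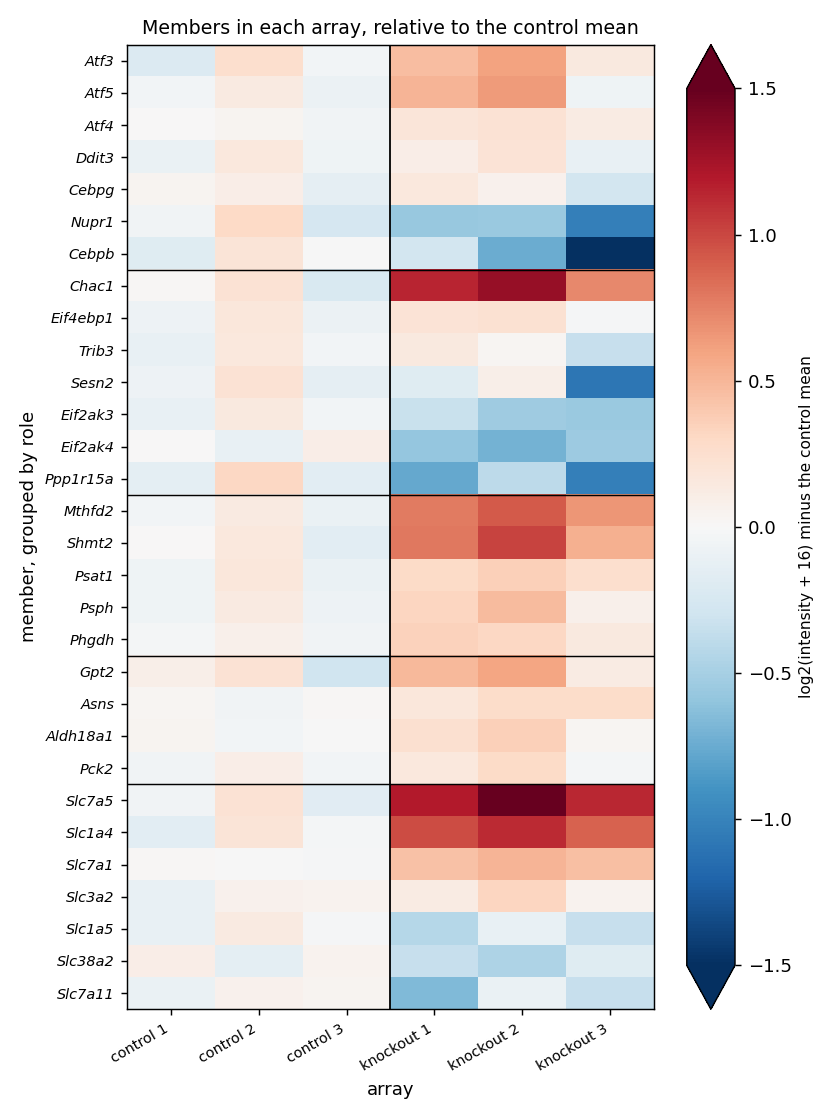
A heat map of the members above the floor (rows, grouped by role) in the 6 arrays (columns), coloured by the log2 deviation from that gene's control mean, red above and blue below, with the colour scale ending at 1.5 in both directions. The medians of the 8 genes higher in the knockout arrays lie at 0.60 to 0.97 in the knockout arrays, with knockout 2 at the top and knockout 3 at the bottom, and the medians of the kinases and feedback factors reach -0.54 in knockout 3.

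Other probe sets of the same genes gave a second reading. Above the floor were 31 further probe sets of 19 listed genes. The log2 difference had the same sign as in the main probe set for 30 of them, and the exception was a dimmer one of Ddit3 at -0.20. A shared sign did not always mean a like size. A probe set of Cebpg with control readings of 1624 to 1999 was at -0.52 with no overlap, against -0.015 in the main one. Its adjusted p over probe sets was 0.202. A dim one of Slc7a11 was at -1.28 with overlap, against -0.37, and its adjusted p was 0.170. Of the 31, 4 passed the test over probe sets, in which 7.62% of 27060 passed, and all 4 in the direction of the main one. They belong to Mthfd2 at 0.90, Asns at 0.31, Slc7a1 at 0.52 and Slc1a4 at 1.003. Probe sets of 1 gene are read on the same RNA of the same arrays, so they are not replicates.

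The arrays differed within groups. Among the 30 genes above the floor, control 2 was the highest control for 25, knockout 2 the highest knockout for 23 and knockout 3 the lowest knockout for 24. Over all 9922 genes above the floor the same arrays held these places for 60.7%, 55.7% and 57.8%. Controls 1 and 3 were the closest pair, with an SD over genes of 0.14 for their log2 difference, against 0.31 to 0.68 for the other pairs within groups. The mean log2 level of the bacterial spike-in probe sets was 10.66, 10.88 and 10.78 in the controls and 11.03, 11.08 and 10.86 in the knockouts. With this level as a covariate, 2 genes passed as higher, Slc7a1 at 0.46 with an adjusted p of 0.0364 and Slc1a4 at 0.73 with 0.0384, and none as lower, while the median of the list moved to -0.033. Over all genes, 1.34% were higher in that fit. Without a filter on dim probe sets, 4 passed as higher, Slc7a1, Slc1a4, Slc7a5 and Mthfd2, and 1 as lower, Eif2ak4, where 2.86% of all genes were higher. With 1 array left out, the number higher was 11 without knockout 3, 5 without control 2, 4 without knockout 2 and 1 when control 1, control 3 or knockout 1 was the array left out, and 0 or 1 were lower. The share of all genes higher moved with it: it was 16.2% without knockout 3, 4.94% without control 2 and 4.08% without knockout 2, and 0.766% to 1.25% without one of the other arrays. The share of all genes lower ran from 0.806% without control 3 to 8.28% without knockout 3. Without control 2 and knockout 3 together, 14 passed as higher, or 43.8% against 24% of all genes, and 2 as lower. The part of the spike-in level in these results was not tested.

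**Figure D4:**
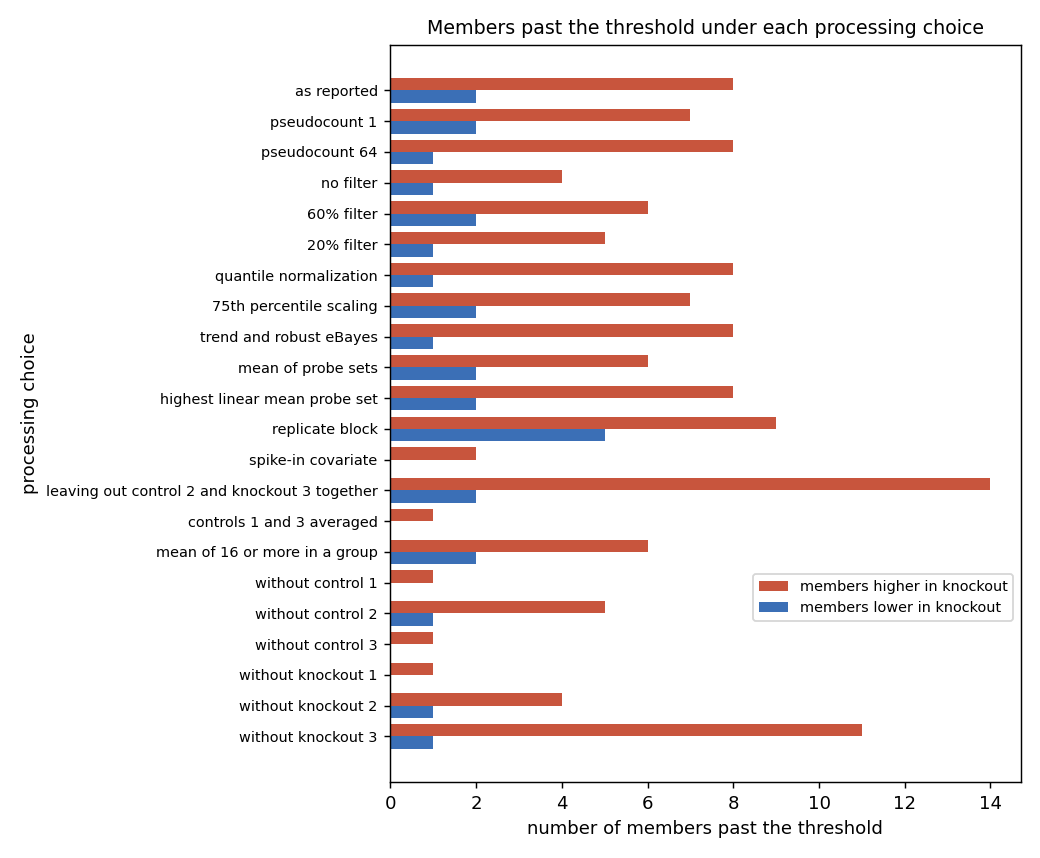
The number of members past the threshold in each direction under each processing choice, with each array left out in the lowest 6 rows. As reported there are 8 higher and 2 lower, and the number higher runs from 1, without control 1, control 3 or knockout 1 or with controls 1 and 3 averaged, to 14 without control 2 and knockout 3 together.

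Epas1 was read in every array as a check of the labels, with a bright probe set at 9611, 9590.3 and 9444 in the controls and 8920.4, 9397 and 9859 in the knockouts. The groups overlapped, at a log2 difference of -0.025 ± 0.041 and an adjusted p of 0.768 over probe sets. A second, dim probe set read 10.3 to 11.4 in the controls and 11.5 to 21.7 in the knockouts. These readings are near the floor, and the adjusted p was 0.254. Where these probes lie relative to the deleted part was not examined, and a probe outside it checks nothing. All 12 endothelial markers were above the floor in at least 1 array, with Cldn5 at 15.2 in knockout 3, and 4 of them, Tek, Erg, Tie1 and Pecam1, were lower in the knockouts. The summed level of the 12 was 152599 to 165588 in the controls and 126671 to 140026 in the knockouts. Of the leukocyte markers with a probe set, 10 of 11 were below the floor in all arrays. The other, Cd68, was lower in the knockouts and carried nearly all of a summed level of 3733 to 4297 against 801 to 1171. All 7 fibroblast, 10 epithelial and 4 mesothelial markers were below the floor, as were 7 of 8 of smooth muscle cells and pericytes, with Tagln as the exception. Tagln read 44, 75 and 32 in the controls and 207, 167 and 70 in the knockouts. Its groups overlapped and it did not pass the test, at 1.25 ± 0.46 with an adjusted p of 0.144. In RNA of a whole culture, less RNA per cell and fewer cells that hold it cannot be told apart, and the part of these markers in the results was not tested.

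Related gene lists put the listed genes in context, and their counts are read against the 8.65% higher and 5.07% lower over all genes. Aminoacyl-tRNA synthetases, which charge tRNAs with amino acids and include known ATF4 targets, had 7 of 19 tested genes higher, or 36.8%, and 0 lower, with a median log2 difference of 0.34. Vars, for valine, read 909, 771 and 884 in the controls and 1994, 2192 and 1682 in the knockouts. Vars thus had no overlap, at 1.17 ± 0.12 with an adjusted p of 0.012. Tars, for threonine, was at 0.34 ± 0.03 with 0.00824, Mars1, for methionine, at 0.39 with 0.016 and Iars, for isoleucine, at 0.34 with 0.0289. Of the 13 synthetase genes with a promoter window, 5 held a TGATGNAA match: Aars, Gars, Iars, Tars and Yars, of which Gars, Iars and Tars were higher. The count of 7 fell to 0 without control 1 or control 3, to 1 without knockout 1, to 5 without control 2 and to 4 without knockout 2, and was 10 without knockout 3.

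Neighbouring one-carbon genes had 4 of 13 higher, or 30.8%, and 0 lower, with a median of 0.42. Shmt1, the cytosolic counterpart of Shmt2, read 544, 582 and 578 in the controls and 1248, 1234 and 1110.0 in the knockouts. Values within each group were close, and the log2 difference was 1.05 ± 0.06 with an adjusted p of 0.00321. Mthfd1, the cytosolic folate enzyme, was at 0.93 with 0.00894. Sfxn1, the mitochondrial serine carrier, was at 0.29 with 0.0259 and Mtfmt, which formylates the mitochondrial initiator tRNA, at 0.81 with 0.0283. Of the 13 tested genes, 11 had a promoter window, and none of these held a TGATGNAA match. Without control 1, control 3 or knockout 1, 1 of these genes passed.

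Of 14 genes of amino acid breakdown and glutamine metabolism, 2 were higher, or 14.3%, and 0 lower. All 14 log2 differences were positive, with a median of 0.35, but 3 of the genes, Prodh, Arg2 and Ass1, were below the floor in all arrays. The median of the 11 above it was 0.53. Positive log2 differences were the more common ones over all genes, with 7613 of 12277 tested and 5496 of the 9922 above the floor. The 2 higher genes were Bcat1, the cytosolic branched-chain aminotransferase, at 0.62 ± 0.09 with 0.0207, and Oat, the ornithine aminotransferase, at 0.62 ± 0.12 with 0.0413. Got2, the mitochondrial aspartate aminotransferase, was at 0.23 with 0.0538 and Pycrl, a proline synthesis enzyme, at 0.92 with 0.0562. Both Bcat1 and Oat were lost without control 1, control 2, control 3 or knockout 1, where the count was 0, and the count was 6 without knockout 3.

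A list of 27 further genes known to respond to ATF4 moved in both directions, with 4 higher and 4 lower, 14.8% each, and a median of 0.089, or 0.064 without Slc43a1, which was below the floor in all arrays. The 4 lower genes were Vegfa, an angiogenic growth factor, Ndrg1, Ddit4, an inhibitor of mTORC1, and Vldlr, a lipoprotein receptor. Vegfa read 1349.8, 1353 and 1454 in the controls and 819, 803 and 745 in the knockouts. Vegfa was thus lower in each knockout array, at -0.80 ± 0.05 with an adjusted p of 0.00421. Ndrg1 was at -0.39 with 0.0122. The 4 higher were Slc7a6, a cationic and neutral amino acid exchanger, at 1.06 with 0.0161, Bcat1, Gadd45b and Gars. Gadd45b, a stress gene, was at 2.50 ± 0.44 with 0.0318. Vldlr, Ddit4, Gadd45b and Gars are named to complete these counts, after their values were seen. A place on this list does not show which factor changed a gene here, and that was not tested. Leaving out 1 array gave 0 to 6 genes higher and 1 to 5 lower, with 0 higher without control 1, control 3 or knockout 1, and 1 lower without control 3 or knockout 1.

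Genes of amino acid sensing and mTORC1, the kinase complex that promotes growth when amino acids are plentiful, had 0 of 22 higher and 4 lower, or 18.2%, with a median of -0.026. Depdc5, a part of the GATOR1 complex that inhibits mTORC1, read 255, 266 and 212 in the controls and 103, 91.3 and 104 in the knockouts. It had no overlap, at -1.17 ± 0.10 with 0.00783. Rheb, the GTPase that activates mTORC1, was at -0.31 with 0.0273, and Rraga, a GTPase that brings it to the lysosome, at -0.37 with 0.0467. Ddit4, which is also on the list of further ATF4 genes, was at -0.25 with 0.0379. The 4 that fell thus hold inhibitors and activators of the complex. The number lower was 0 without control 1, 1 without control 2, control 3 or knockout 1, and 2 without knockout 2.

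Of 16 other amino acid transporters, 2 were higher and 1 was lower, shares of 12.5% and 6.25% that are near those over all genes. The median was 0.0056, and over the 12 above the floor it was -0.087, since Slc43a1, Slc1a3, Slc38a4 and Slc7a2 were below the floor in all arrays. The higher ones were Slc7a6, given above, and Slc7a7. Slc7a7, a related exchanger that also pairs with Slc3a2, was at 0.996 ± 0.19 with an adjusted p of 0.0401. Slc36a4, a carrier of proline and tryptophan, read 3944, 3205 and 3965 in the controls and 1452, 1122 and 1985 in the knockouts. It was lower in each knockout array, at -1.31 ± 0.24 with 0.0338. Slc38a1, a glutamine carrier, did not pass, at -0.38 with 0.0515. Of the 15 genes of the eIF2 signalling apparatus outside the list, 1 was higher and 0 were lower, with a median of -0.012. That is 6.67% higher, under the share over all genes. The gene was Gcn1, the ribosome-bound activator of GCN2, which read 1414, 1780.1 and 1531 in the controls and 2354, 2599 and 2133 in the knockouts. The log2 difference of Gcn1 was 0.58 ± 0.12 with an adjusted p of 0.0432. Leaving out 1 array gave 0 to 3 of these transporters higher, with 0 without control 1, control 3 or knockout 1, and none of them was lower unless knockout 3 was left out. The eIF2 genes had 0 higher without control 1, control 3, knockout 1 or knockout 2.

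**Figure D5:**
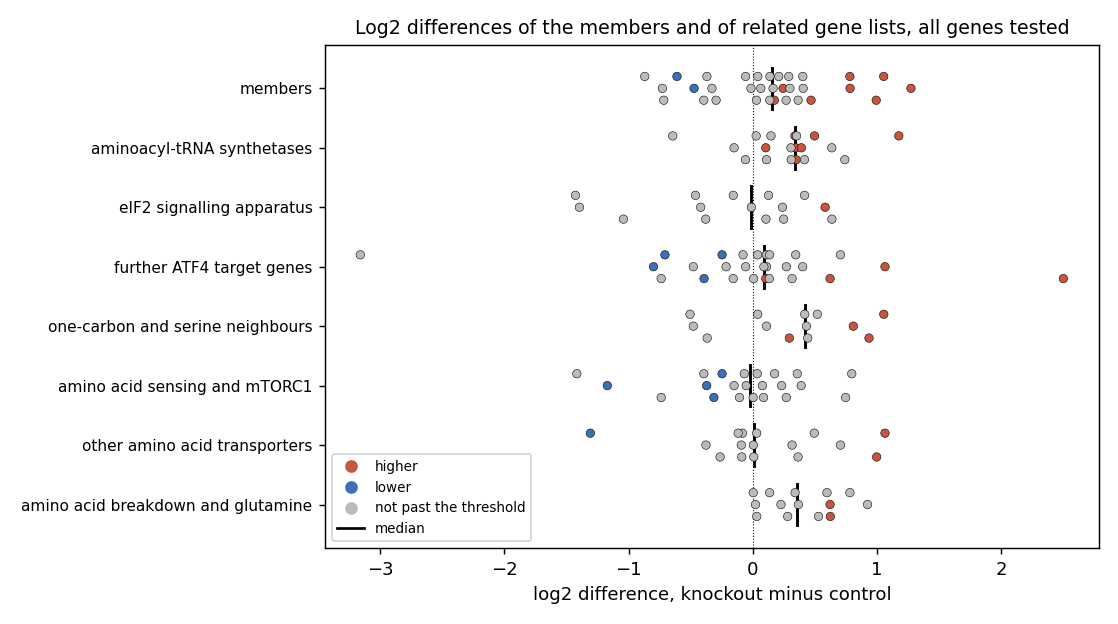
The log2 difference of every tested gene of the list and of 7 related lists, with a bar at each list's median. The medians run from -0.026 for amino acid sensing and mTORC1 to 0.42 for the one-carbon neighbours, and the synthetases, one-carbon genes and breakdown genes hold 0 genes lower past the threshold.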

How the data were processed

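Per the labels' protocols, total RNA was extracted from the mouse endothelial cells, amplified with biotin labelling and read on 1 Affymetrix array per sample. The deposited table holds linear intensity values for 45101 probe sets. MAS5 and GCRMA appear in the submitters' processing notes with no role given. The values were used as deposited with no further normalization. Medians were close between arrays (5.52 to 5.66), as was the share of probe sets at 16 or more (41.5% to 42.6%). The medians lie below the floor, so they do not show that brighter genes share a scale. Dim probe sets share nearly one value, so differences near an intensity of 16 were given no fold.

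Genes were named from the platform annotation, where 34958 probe sets had 1 gene. Intensities were taken as log2(intensity + 16), which understates dim genes' changes. After leaving out the dimmest 40% of probe sets by mean, the brightest probe set stood for each gene, and the groups were compared with limma 3.58.1, run in R 4.3.3, as a two-sided test (lmFit, then eBayes) over 12277 genes with Benjamini-Hochberg adjustment. The scripts were tested on simulated data with independent spread for each gene and array. That test does not cover differences that many genes of an array share, as seen here. Called means an adjusted p under 0.05. Values are means ± SD over 3 arrays, ratios are of mean intensities, and log2 differences carry their SE. The number of arrays limits the precision.

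All 34 listed genes may be named; values per array are given for called genes and for Atf4, Asns, Ddit3, Trib3, Eif2ak3, Eif2ak4 and Epas1, with up to 4 genes of smallest p in each related list. The members, lists, alternatives and this rule were chosen with earlier results of these data known. Promoter windows came from a RefSeq table of GRCm38.p6, and figures were drawn with matplotlib 3.10.9. Alternatives were other pseudocounts, filters, scalings, eBayes settings and choices of probe set, the spike-in level as a covariate, the replicate number as a block, and arrays left out or averaged. A filter on a group mean of 16 was added after seeing the data.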

Additional observations from a re-analysis of the deposited data

How the results depend on the processing

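Over the 21 settings run, 21 of the 30 genes above the floor kept the sign of their log2 difference, all 8 that were higher among them. The number of genes higher among the members was 4 without a filter, 5 with a 20% filter, 2 with the spike-in covariate, 14 without control 2 and knockout 3, and 1 with controls 1 and 3 averaged. In the same order, the shares of all genes higher were 2.86%, 4.55%, 1.34%, 24% and 0.774%. The number lower was 1 with a pseudocount of 64, no filter, a 20% filter, quantile normalization or trend and robust settings, 5 with the replicate block, and 0 with the spike-in covariate or with controls 1 and 3 averaged. The shares of all genes lower were 2.05% to 4.78% in the settings with 1 and 7.48% with the replicate block. They were 2.26% with the spike-in covariate and 0.798% with controls 1 and 3 averaged. Over all genes, 1685 were called, against 893 without a filter, 2997 with the replicate block, 442 with the spike-in covariate, 4632 without control 2 and knockout 3, and 193 with controls 1 and 3 averaged. Probe sets called went from 2062 to 3770 with the replicate block. Whether the replicate numbers pair the samples is not settled. Same-numbered arrays had correlations of -0.46, 0.84 and 0.80 in their deviations from the group means. Knockout 1 correlated best with control 2, at 0.50, and control 1 with knockout 3, at 0.76. Deviations sum to 0 within each group, so these correlations are tied to each other and cannot decide it. With the replicate block 9 members were higher, or 28.1% against 16.9% of all genes, and 7 of them were shared with the 8.

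With 1 array left out, 206 to 3003 genes were called, 193 to 3617 probe sets, 1 to 11 members higher and 0 to 1 lower, and the member median ran from 0.089 to 0.22. List medians then ran from 0.29 to 0.36 for the synthetases, -0.046 to 0.094 for the eIF2 genes, 0.033 to 0.10 for further ATF4 targets, 0.30 to 0.48 for one-carbon neighbours, -0.035 to 0.050 for sensing, 0.0031 to 0.019 for other transporters and 0.25 to 0.41 for breakdown. The spike-in covariate gave medians of -0.033 for the members, 0.23 for synthetases, 0.17 for eIF2 genes, -0.0041 for further targets, 0.21 for one-carbon neighbours, -0.091 for other transporters and 0.12 for breakdown. Leaving out control 2 and knockout 3 gave 0.13 for eIF2 genes, 0.36 for one-carbon neighbours, 0.069 for sensing and 0.11 for other transporters. The mean of probe sets gave 0.081 for eIF2 genes, 0.039 for further targets and 0.35 for one-carbon neighbours. That list was at 0.29 with a pseudocount of 64, 0.36 with no filter, a 20% or a 60% filter, and 0.32 with controls 1 and 3 averaged. Other transporters were at -0.087 with a 60% filter or a group mean of 16 or more, sensing at 0.055 with quantile normalization, and breakdown at 0.52 with a pseudocount of 1, 0.56 with a 60% filter and 0.53 with a group mean of 16 or more.

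Changes of sign were seen for genes that were not called. With the spike-in covariate Atf5 was at -0.082, Atf3 at -0.036, Ddit3 at -0.20, Eif4ebp1 at -0.10, Pck2 at -0.083 and Slc3a2 at -0.031. Ddit3 was at -0.068 as the mean of its probe sets and ran from -0.0062 to 0.15 with 1 array left out. Without control 2 and knockout 3, Cebpg was at 0.16, Trib3 at 0.17 and Sesn2 at 0.055, and with 1 array left out Cebpg ran from -0.10 to 0.11 and Trib3 from -0.16 to 0.085. The numbers of arrays and of genes tested differed between settings, and the cause of the changes in counts was not tested. Array weights were not run, because their estimation stopped before it converged. With 3 arrays a group, signal over background limits Cth, Cbs and Slc7a3, which were below the floor in all arrays.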
